A study of Homo sapiens with 12 samples.

Results

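The RNA of 9 genes of heme synthesis was followed after exposure to HPPE, zinc protoporphyrin or tin protoporphyrin in SH-SY5Y, a neuroblastoma line of human origin. The genes are 7 enzymes of the pathway (ALAS1, ALAD, UROS, UROD, CPOX, PPOX and FECH) and 2 mitochondrial carriers (SLC25A38 and TMEM14C). They were listed by name for their place in the pathway, with earlier results of these data known, and each matched 1 of the 60710 gene rows of the count table by its Ensembl identifier. The series holds 12 libraries in 4 groups of 3. Cells of 3 groups received a compound at 5 µM for 5 h, and every well, including those of the control group, received 10 µL of DMSO in 2 mL of medium. The 2 protoporphyrins carry the same ring and differ in its metal, and HPPE is known here by its code name only. The series title places the work in a study of activators of NRF2, a transcription factor of antioxidant genes. SH-SY5Y is a single tumour line, and whether the 3 libraries of a group came from separate cultures is not stated, so p-values measure the spread between these libraries, which may be technical.

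Heme is built from glycine and succinyl-CoA in a chain of enzymes that starts in the mitochondrial matrix, passes through the cytosol and ends at the inner mitochondrial membrane. ALAS1, the 5-aminolevulinate synthase of cells other than red cell precursors, is the rate-limiting enzyme of the chain and is known to be held down by heme itself. Zinc and tin protoporphyrin are known as inhibitors of heme oxygenase, the enzyme that opens the heme ring, and HMOX1, its inducible form, is a known target of NRF2. NRF1 (nuclear respiratory factor 1, a factor of mitochondrial genes that is unrelated to NRF2) is known to act on ALAS1.

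The start regions of ALAS1 and FECH are shown because, of the members with a promoter window, only these held a match to a motif searched. They were also the members with the largest fall and the largest rise against the control, and a link between motif and change was not tested. Both sequences are 150 bases long from RefSeq (GRCh38.p14), written 5′ to 3′ on the gene's own strand, and end at the first transcribed base. The ALAS1 region lies at chr3:52197934-52198083 on the plus strand, and its capitals mark a match to the NRF1 motif (GCGCA, 1 base of any kind, then GCGC) on the opposite strand, from 9 bases before the start to base 1. The FECH region lies at chr18:57586702-57586851 on the minus strand, and its capitals mark a match on the opposite strand to the antioxidant response element TGACNNNGC, the motif bound by NRF2, 38 to 30 bases before the start.
ALAS1: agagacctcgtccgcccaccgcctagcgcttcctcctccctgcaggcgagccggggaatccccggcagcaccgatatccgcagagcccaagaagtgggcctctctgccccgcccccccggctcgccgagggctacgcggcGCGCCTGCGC
FECH: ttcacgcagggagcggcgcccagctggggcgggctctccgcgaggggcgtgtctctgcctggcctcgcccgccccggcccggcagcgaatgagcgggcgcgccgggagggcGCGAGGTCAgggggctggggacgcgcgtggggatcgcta
Promoter windows of 300 bases were found for 8 of the 9 genes, in 10 entries, and UROS had none. Both motifs were searched on both strands. The NRF1 motif was in 1 of the 10 entries, that of ALAS1, which held it at 2 places (the other from base 22 to base 31), and in 5.78% of all 35116 windows. The antioxidant response element was in 1 of the 10, that of FECH, and in 13.3% of all windows. A match describes the letters of the window only.

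Total counts ran from 1337028 to 9145399 per library, with zinc protoporphyrin 1 (1337028), DMSO control 3 (1514595) and HPPE 3 (3141853) the shallowest. Levels are given as CPM, counts per 1000000 after library sizes were scaled with TMM, the trimmed mean of M values. Counts of the 9 genes ran from 17 (ALAS1, in the shallowest library) to 604 (FECH), and all 9 passed the filter on low counts that left 16366 genes. Libraries also differed along a trend with transcript length, whose Spearman correlation over 10952 genes ran from -0.54 (tin protoporphyrin 1) to 0.57 (zinc protoporphyrin 3). HPPE 2 and HPPE 3 differed by little more than sampling noise, with a chi-square per degree of freedom of 1.11 where the other pairs within a group ran from 1.49 to 17.3. Of 10 noradrenergic neuroblastoma markers, 9 reached a mean of 1 CPM over the 12 libraries, while TH had at most 2 counts. Their summed level was 4470 to 4690 CPM in the control, 4200 to 4220 with HPPE, 3850 to 4310 with zinc protoporphyrin and 4160 to 4290 with tin protoporphyrin. Of 6 markers of mesenchymal-type neuroblastoma, 5 reached that mean. Their sums were 842 to 889 CPM in the control, 929 to 957 with HPPE, 821 to 976 with zinc protoporphyrin and 994 to 1020 with tin protoporphyrin. The libraries of all 3 compounds were thus below the control for the first list, without overlap. For the second list the HPPE and tin protoporphyrin libraries were above the control without overlap, while those of zinc protoporphyrin overlapped it. Most of the second sum was FN1 (mean 520 CPM over the 12 libraries) and TWIST1 (336 CPM), so it says little of the other markers. The part of these shifts in the results was not tested. Of 10 erythroid markers, 9 stayed at or under 3 counts in all 12 libraries, ALAS2, the synthase of red cell precursors, among them. None of 4 hepatocyte and none of 4 leukocyte markers reached a mean of 1 CPM over the 12 libraries, though CD14 had up to 10 counts. In bulk RNA, fewer cells that express a gene and less RNA per cell cannot be told apart.

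The genes lie on 6 chromosomes. In GENCODE 29 (GRCh38), ALAS1 spans chr3:52198086-52214327 on the plus strand, ALAD chr9:113386317-113401333 on the minus strand and FECH chr18:57548283-57586772 on the minus strand. SLC25A38 (chr3:39383324-39397351, plus) and CPOX (chr3:98579446-98593723, minus) share chromosome 3 with ALAS1, and UROD (chr1:45012147-45015575, plus) and PPOX (chr1:161166410-161178013, plus) share chromosome 1. UROS lies at chr10:125784980-125823285 on the minus strand and TMEM14C at chr6:10722915-10731129 on the plus strand. The exons of PPOX overlap those of B4GALT3 on the opposite strand over 1118 bases (24.3% of the PPOX exons), and B4GALT3 had 5066 counts against 1619 for PPOX. Without stated strand in the counting, PPOX values are therefore uncertain.

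**Figure D1:**
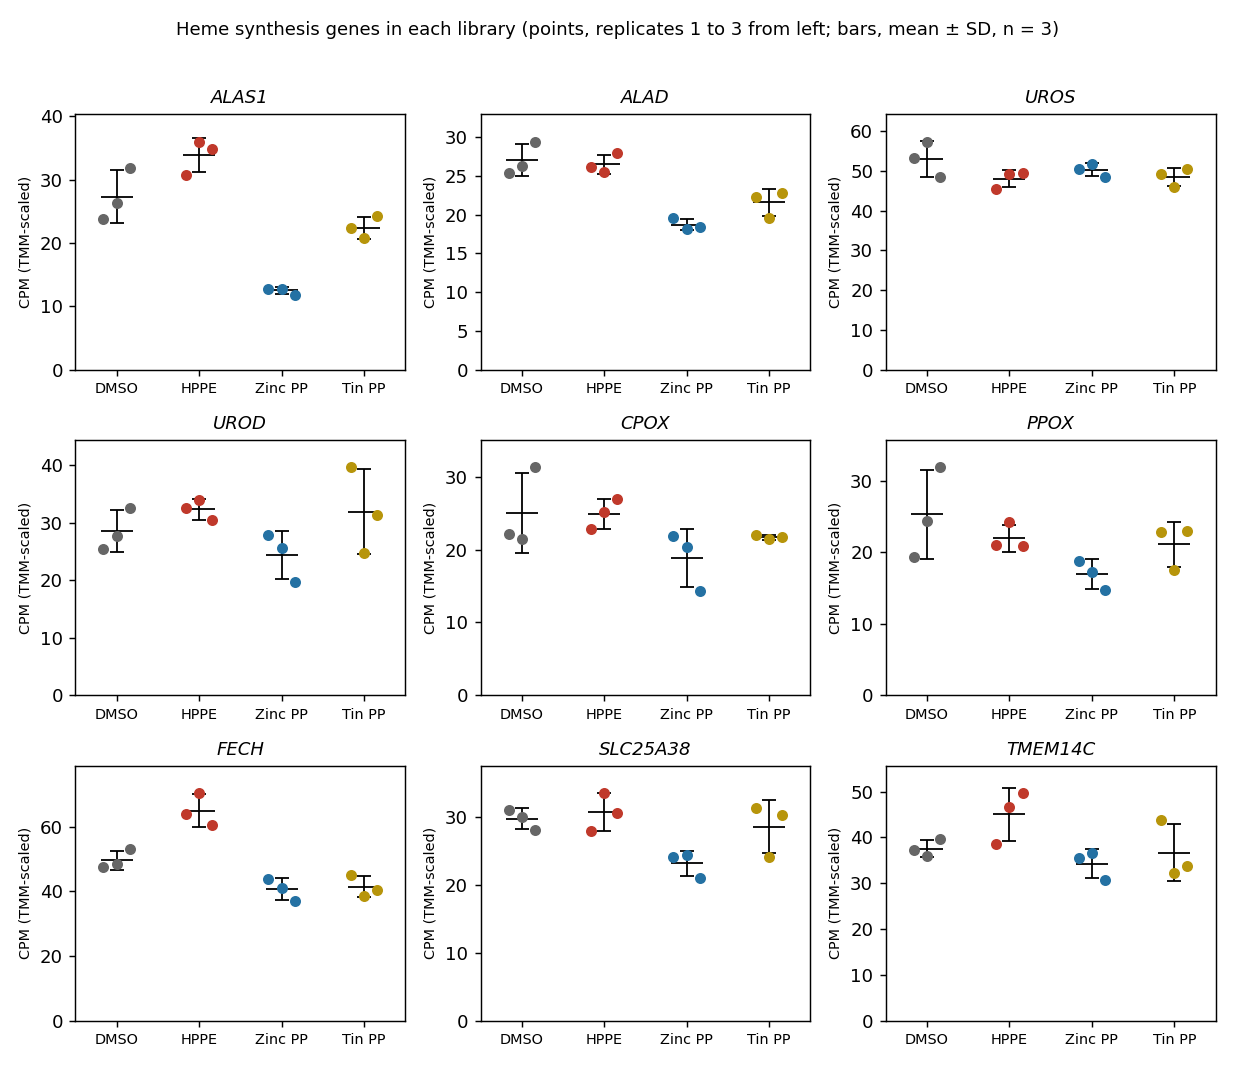
TMM-scaled CPM of each of the 9 genes on the vertical axis, from 0, by group on the horizontal axis; points are libraries, replicates 1 to 3 from left, and bars are the mean ± SD of 3. ALAS1 shows the 3 zinc protoporphyrin libraries at 11.8 to 12.8 CPM, below all 9 others, and FECH shows the 3 HPPE libraries at 60.5 to 70.4 CPM, above all 9 others.

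With zinc protoporphyrin, ALAS1 and ALAD were called lower, and only the ALAS1 call was kept in all alternative fits. PPOX, a later enzyme, had a log2 value as low as that of ALAD (-0.53 against -0.52) but was not called. ALAS1, which condenses glycine with succinyl-CoA, was at 23.8, 26.3 and 31.9 CPM in the DMSO control libraries and at 12.8, 12.8 and 11.8 CPM in the zinc protoporphyrin libraries. The gap between the highest treated and the lowest control library was wider than the whole range of the control libraries. Its mean fell from 27.3 ± 4.15 to 12.5 ± 0.59 CPM (SD, n = 3 each), a log2 fold change of -1.09 ± 0.14 (SE) with a 95% confidence interval of -1.38 to -0.79 and an edgeR quasi-likelihood adjusted p of 0.000329, or 2.12-fold lower. ALAD, the cytosolic enzyme that joins 5-aminolevulinate into porphobilinogen, was at 25.4, 26.3 and 29.4 CPM in the control and at 19.6, 18.2 and 18.4 CPM with zinc protoporphyrin. The ALAD groups did not overlap either, and the gene was 1.43-fold lower (log2 -0.52 ± 0.12, interval -0.77 to -0.27, edgeR adjusted p = 0.0286).

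These 2 of 9 genes were called lower at an adjusted p under 0.05, where 0.415% of all 16366 genes were called lower and 1.84% higher. All 9 fitted log2 values were below 0, with a median of -0.38 beside 0 over all genes, and 6 of the 9 had an unadjusted p under 0.05, as did 18.6% of all genes. In 5 of the 9, every zinc protoporphyrin library was below every control library, where 10.4% of all genes were. Besides ALAS1 and ALAD these were PPOX, FECH and SLC25A38, none of which passed the test.

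Further down the chain, UROS, which closes the porphyrin ring, had nearly equal levels in both groups (53.1 ± 4.47 and 50.3 ± 1.61 CPM, log2 -0.11 ± 0.09). UROD, which removes carboxyl groups from the ring, was at 28.5 ± 3.66 and 24.4 ± 4.2 CPM, and its libraries overlapped (log2 -0.24 ± 0.17, edgeR adjusted p = 0.491). CPOX, the oxidase of the intermembrane space, was at 25 ± 5.48 and 18.9 ± 3.99 CPM (log2 -0.38 ± 0.16, edgeR adjusted p = 0.22). DMSO control 3 stood apart for CPOX, at 31.3 CPM against 22.2 and 21.4 in the other control libraries, and zinc protoporphyrin 3 was at 14.3 CPM against 21.8 and 20.4. PPOX, which completes protoporphyrin, was at 19.4, 24.4 and 31.9 CPM in the control and 18.8, 17.3 and 14.7 CPM with zinc protoporphyrin (log2 -0.53 ± 0.17, edgeR adjusted p = 0.114). FECH, which inserts iron into protoporphyrin, went from 49.6 ± 2.92 to 40.6 ± 3.4 CPM (log2 -0.30 ± 0.10, edgeR adjusted p = 0.132). Of the carriers, SLC25A38, which brings glycine into the mitochondrion, was at 29.8 ± 1.53 and 23.2 ± 1.87 CPM (log2 -0.39 ± 0.13, edgeR adjusted p = 0.123). TMEM14C, an inner membrane protein needed for the late porphyrin steps, was at 37.5 ± 1.86 and 34.3 ± 3.08 CPM (log2 -0.13 ± 0.14).

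The ALAS1 call was kept in each of 23 alternative fits, with log2 values from -1.18 to -0.96. The ALAD call was not: its adjusted p was 0.0567 in a fit of the compared groups only, 0.0618 with DESeq2, 0.0606, 0.131 and 0.0562 without DMSO control 1, 2 or 3, and 0.0898 and 0.161 without zinc protoporphyrin 2 or 3, while its log2 value stayed between -0.56 and -0.43 in all 23. The length trend moved with these results, and the log2 fold changes of this comparison correlated with transcript length at 0.35 (Spearman, 10952 genes). The 3 zinc protoporphyrin libraries had correlations with length of 0.22, 0.38 and 0.57, the control libraries 0.44, 0.19 and -0.46, and the summed level of the 9 genes was lowest in zinc protoporphyrin 3 (216 CPM) and highest in the control in DMSO control 3 (326 CPM). With each library's trend on length and GC content removed, ALAS1 was at -0.96 (adjusted p = 3.16e-05), ALAD at -0.43 (adjusted p = 0.0214) and TMEM14C at 0.01. The trends were estimated from these same counts, and that fit called 885 genes in all where the main fit called 369. Its smaller adjusted p-values are therefore no separate support. The median of the 9 genes was then -0.28, with 8 of 9 below 0.

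**Figure D2:**
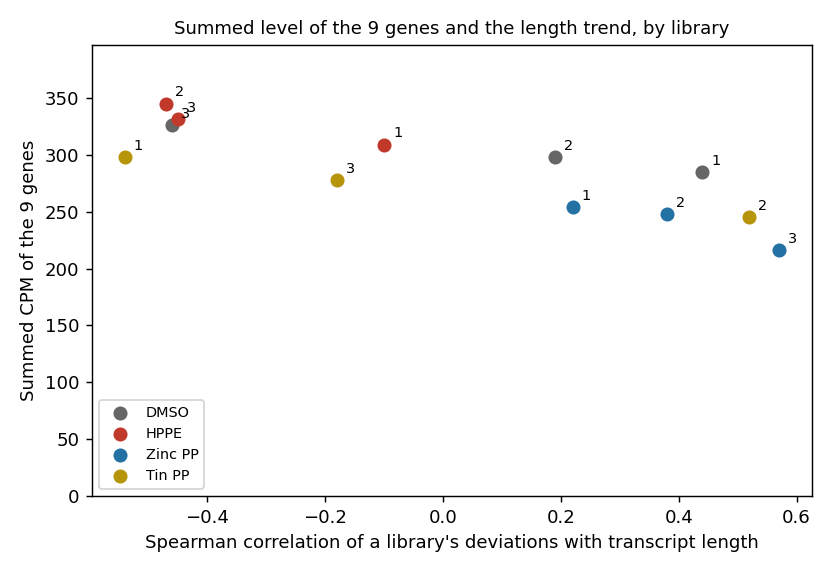
Summed CPM of the 9 genes (vertical axis, from 0) against the Spearman correlation of each library's deviations from the gene means with transcript length (horizontal axis), 1 point per library, coloured by group and numbered by replicate. Libraries with a positive length correlation lie at sums of 216 to 298 CPM, and those with a negative one at 278 to 345 CPM; the group means of zinc protoporphyrin and HPPE fall at opposite ends of both axes.

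HPPE raised FECH, the last enzyme of the chain. FECH was at 47.5, 48.4 and 53 CPM in the control and at 63.8, 70.4 and 60.5 CPM with HPPE. All 3 HPPE libraries were above all 3 control libraries, and the mean rose from 49.6 ± 2.92 to 64.9 ± 5.03 CPM (SD, n = 3 each). The change was 1.33-fold (log2 0.42 ± 0.10, interval 0.21 to 0.62, edgeR adjusted p = 0.0186). It was the only one of the 9 genes called, in a comparison that called 2.57% of all genes higher and 1.47% lower, and also the only one whose groups did not overlap, as 11.9% of all genes did upward.

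ALAS1 was at 30.8, 36 and 34.8 CPM with HPPE. Only DMSO control 3, at 31.9 CPM, reached into that range, and the gene did not pass the test (log2 0.36 ± 0.12, interval 0.11 to 0.62, edgeR adjusted p = 0.107). Without that shallow control library its log2 value was 0.43 with an adjusted p of 0.0414, in a fit that called 1034 genes in all beside 662 in the main fit. ALAS1 was called in 2 of the 23 alternatives, over which its adjusted p ran from 0.0131 to 0.537. TMEM14C was at 38.5, 46.7 and 49.7 CPM with HPPE against 35.9 to 39.6 CPM in the control (log2 0.26 ± 0.13, edgeR adjusted p = 0.31). UROD was at 32.3 ± 1.82 CPM with HPPE (log2 0.24 ± 0.16, edgeR adjusted p = 0.468).

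The other 5 genes had log2 values close to 0. ALAD stood at 26.5 ± 1.22 CPM against 27 ± 2.08 (log2 -0.01 ± 0.11), SLC25A38 at 30.8 ± 2.77 CPM (log2 0.03 ± 0.12) and CPOX at 24.9 ± 2.09 CPM (log2 0.08 ± 0.15). PPOX had 22 ± 1.89 CPM (log2 -0.09 ± 0.16) and UROS 48.1 ± 2.1 CPM (log2 -0.17 ± 0.09, edgeR adjusted p = 0.321). Over the 9 genes, 6 log2 values were above 0 and 3 below, with a median of 0.08 beside 0.02 over all genes. The FECH call was lost without DMSO control 1 (adjusted p = 0.141), DMSO control 2 (0.114), HPPE 1 (0.0508) or HPPE 2 (0.16), with log2 values from 0.34 to 0.43 there. The log2 fold changes of this comparison correlated with transcript length at -0.37 (Spearman, 10952 genes). With the length and GC trends removed FECH was at 0.42 with an adjusted p of 0.00296, while ALAS1 was at 0.30, UROD at 0.13, TMEM14C at 0.06 and SLC25A38 at -0.07, and the median of the 9 was 0.05. That fit called 1239 genes in all where the main fit called 662, so the smaller adjusted p of FECH is no separate support.

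Tin protoporphyrin changed none of the 9 genes past the threshold. ALAS1 was at 22.3, 20.8 and 24.2 CPM, a mean of 22.4 ± 1.71 CPM against 27.3 ± 4.15 in the control, and DMSO control 1, at 23.8 CPM, was within the range of the treated libraries. Its log2 value was -0.23 ± 0.12 with an interval of -0.48 to 0.03 (edgeR adjusted p = 0.4), so a change of the size seen with zinc protoporphyrin lay outside the interval. ALAD was at 22.3, 19.6 and 22.8 CPM, below every control library (log2 -0.30 ± 0.11, interval -0.53 to -0.07, edgeR adjusted p = 0.197). FECH was at 44.9, 38.7 and 40.5 CPM, also below every control library (log2 -0.24 ± 0.10, interval -0.45 to -0.04, edgeR adjusted p = 0.244).

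These 2 were the only members whose groups were apart, where 7.6% of all genes were apart downward, and they were the 2 of 9 with an unadjusted p under 0.05 (14.7% of all genes). edgeR called 0 of the 9 and so did DESeq2, beside 1.9% of all genes called higher and 0.379% lower by edgeR. UROD had the highest log2 value, 0.21, and its libraries spread from 24.7 to 39.6 CPM. CPOX was at 21.7 ± 0.331 CPM (log2 -0.11), PPOX at 21.1 ± 3.09 CPM (log2 -0.17), UROS at 48.5 ± 2.34 CPM (log2 -0.16), SLC25A38 at 28.6 ± 3.9 CPM (log2 -0.08) and TMEM14C at 36.6 ± 6.21 CPM (log2 -0.02). The median of the 9 was -0.16 beside 0.01 over all genes, and 8 of 9 values were below 0. All 9 genes had their lowest value of the group in tin protoporphyrin 2, the deepest library, whose length correlation was 0.52 where the other tin protoporphyrin libraries had -0.54 and -0.18.

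**Figure D3:**
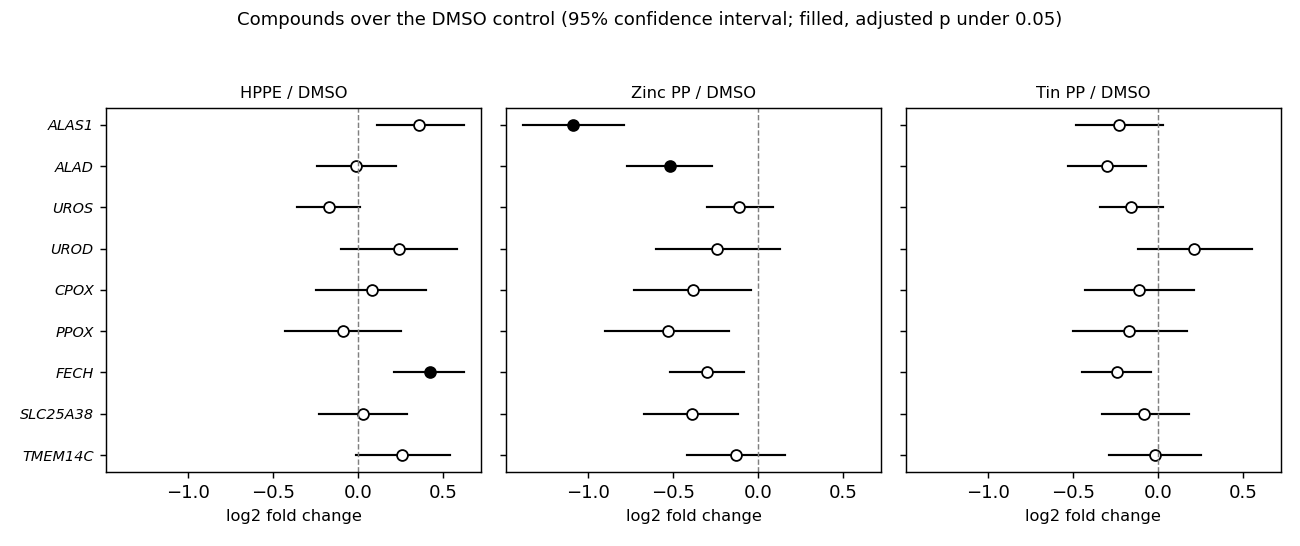
Log2 fold change of each of the 9 genes against the DMSO control (horizontal axis) for HPPE, zinc protoporphyrin and tin protoporphyrin, with 95% confidence intervals; filled points have an edgeR adjusted p under 0.05. The filled points are ALAS1 (-1.09) and ALAD (-0.52) with zinc protoporphyrin and FECH (0.42) with HPPE. The 3 panels share the same control libraries.

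The compounds were then set against each other at the same dose and time, in 3 pairs, with p-values adjusted over all genes within each pair. The protoporphyrins differ in the metal they carry. ALAS1 separated them most: all 3 zinc protoporphyrin libraries (11.8 to 12.8 CPM) were below all 3 tin protoporphyrin libraries (20.8 to 24.2 CPM), a 1.81-fold difference (log2 -0.86 ± 0.13, interval -1.14 to -0.57). The unadjusted p was 6.51e-06 and the edgeR adjusted p 0.0533, and so not past the threshold, in a comparison in which edgeR called 1 of 16366 genes (0.00611% higher, 0% lower). Over the 23 alternatives its adjusted p ran from 2.96e-07 to 0.895, under 0.05 in 8 of them. The lowest came from the fit with the main axis of variation within groups as a covariate, which called 2350 genes in all. That axis was taken from the same counts, so this fit narrows the residual spread by construction. Among the 8 were also DESeq2 (0.0215), the removal of the length and GC trends (log2 -0.72, 0.00879) and the fits without tin protoporphyrin 2 (0.00646), DMSO control 1 (0.0497) or DMSO control 3 (0.0243). The fit with the trends removed, which were also taken from these counts, called 22 genes in all.

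For the other 8 genes no difference between the metals passed the test, and the intervals give what remained possible. UROD had log2 -0.45 with an interval of -0.79 to -0.10, and without tin protoporphyrin 2 it was at -0.61 with an adjusted p of 0.022. SLC25A38 was at -0.32, and at -0.43 with an adjusted p of 0.0374 without that library. In the fit without tin protoporphyrin 2 the calls over all genes rose from 1 to 1453. With the length and GC trends removed, UROD was at -0.25 (adjusted p = 0.338) and SLC25A38 at -0.16 (0.51). PPOX was at -0.37 and CPOX at -0.28. ALAD was at -0.22 with an interval of -0.46 to 0.02, and TMEM14C at -0.11. FECH was at -0.06 with an interval of -0.27 to 0.15, and UROS at 0.05. Of the 9, edgeR called 0, DESeq2 called 1 (ALAS1), and 4 had an unadjusted p under 0.05 beside 13.3% of all genes. ALAS1 was the 1 member whose groups were apart, as 6.38% of all genes were downward. The median was -0.28 against -0.01 over all genes. With the length and GC trends removed it was -0.16.

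Against tin protoporphyrin, HPPE had higher ALAS1 and FECH. ALAS1 was 1.51-fold higher (33.9 ± 2.75 against 22.4 ± 1.71 CPM, log2 0.59 ± 0.11, interval 0.35 to 0.83, edgeR adjusted p = 0.0111), with no overlap between the libraries. FECH was 1.58-fold higher (64.9 ± 5.03 against 41.4 ± 3.19 CPM, log2 0.66 ± 0.09, interval 0.46 to 0.85, edgeR adjusted p = 0.000613). These 2 of 9 were called higher, where 0.745% of all genes were called higher and 0.709% lower, and 4 of 9 were apart upward where 9.81% of all genes were. The FECH call was kept in all 23 alternatives, and that of ALAS1 was lost without HPPE 2 (adjusted p = 0.125) or HPPE 3 (0.0518). The other 7 genes were not called. ALAD (log2 0.29, edgeR adjusted p = 0.226) and TMEM14C (0.28, 0.34) had the highest values among them.

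HPPE and zinc protoporphyrin lay farthest apart. ALAS1 was 2.73-fold higher with HPPE (log2 1.45 ± 0.13, edgeR adjusted p = 5.6e-06), FECH 1.64-fold (0.72 ± 0.10, 0.000511), ALAD by log2 0.51 ± 0.11 (0.0141) and SLC25A38 by 0.42 ± 0.13 (0.0404). These 4 of 9 were called higher, where 6.44% of all genes were called higher and 6.26% lower. In 8 of 9, all but UROS, every HPPE library was above every zinc protoporphyrin library, as in 19% of all genes. The median was 0.46 beside 0.01 over all genes. The calls of ALAS1 and FECH were kept in all 23 alternatives. The ALAD call was lost without HPPE 2 (0.0604), HPPE 3 (0.0566) or zinc protoporphyrin 3 (0.0979), and that of SLC25A38 in 11 alternatives. Among these were the fits without DMSO control 2, HPPE 2, HPPE 3, tin protoporphyrin 3 or any 1 of the zinc protoporphyrin libraries (adjusted p from 0.0551 to 0.248). The fit with the closely alike HPPE 2 and HPPE 3 summed was another (adjusted p = 0.094). The number of members called was 2 without HPPE 2, HPPE 3 or zinc protoporphyrin 3, in fits that called 187, 342 and 173 genes in all. With tin protoporphyrin 1 or 2 left out it was 7 and 8, beside 2958 and 3517 genes in all. The main fit called 2078 genes. With HPPE 2 and HPPE 3 summed, 458 genes and 3 members were called. The log2 fold changes of zinc against tin protoporphyrin correlated with transcript length at 0.52 (Spearman, 10952 genes). For HPPE against zinc protoporphyrin this correlation was -0.53, the strongest of the 6 comparisons. With the length and GC trends removed, the median of the 9 was 0.26, TMEM14C, the shortest of them (1177 bases), went from 0.39 to 0.05, and SLC25A38 was at 0.21 (adjusted p = 0.179).

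**Figure D4:**
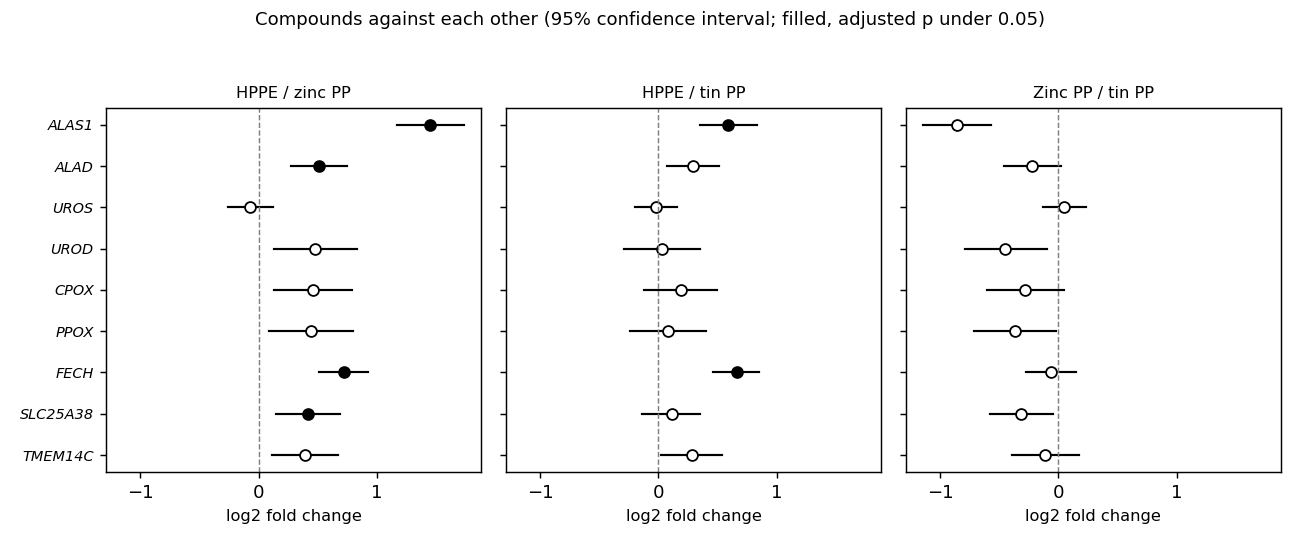
Log2 fold change of each of the 9 genes between compounds (horizontal axis) for the 3 pairs, with 95% confidence intervals; filled points have an edgeR adjusted p under 0.05. HPPE over zinc protoporphyrin has 4 filled points, HPPE over tin protoporphyrin has 2 (ALAS1 and FECH), and zinc over tin protoporphyrin has none, with ALAS1 at -0.86.

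**Figure D5:**
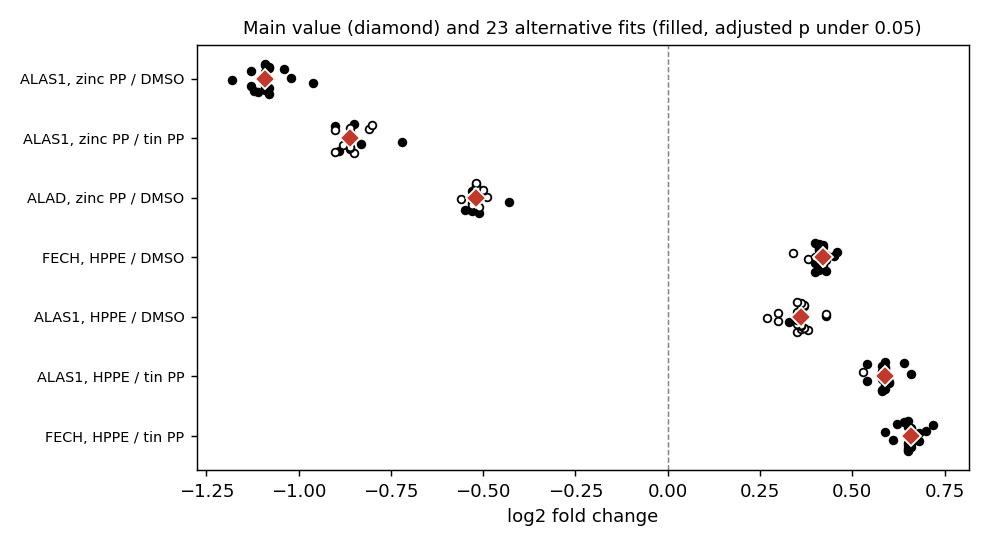
Log2 fold change (horizontal axis) of 7 results in the reported fit (diamonds) and in 23 alternative fits (circles; filled where the adjusted p was under 0.05). No value crosses 0; ALAS1 with zinc protoporphyrin against DMSO is filled throughout, and ALAD and FECH against DMSO hold open circles.

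Levels between genes were compared per kilobase of the longest transcript. In the control, TMEM14C was highest, at 31.9 ± 1.58 CPM per kb, above every library of the next gene. UROD (15.4 ± 1.98), UROS (15.4 ± 1.3), SLC25A38 (13.9 ± 0.715), FECH (12.9 ± 0.759), ALAS1 (11.2 ± 1.71), PPOX (10.2 ± 2.54), CPOX (8.85 ± 1.94) and ALAD (8.32 ± 0.64 CPM per kb) followed, and no neighbours among these 8 differed beyond the spread of their libraries. ALAS1 held rank 6 of 9 in the control, with HPPE (13.9 ± 1.13) and with tin protoporphyrin (9.23 ± 0.702). With zinc protoporphyrin it was the lowest of the 9 by this measure, at 5.13 ± 0.243 CPM per kb, below every library of ALAD (5.77 ± 0.23). The order depends on the length used. Per kb of all exons, ALAS1 with zinc protoporphyrin (4.92) was above ALAD (3.76) and PPOX (3.67). In the control ALAS1 (10.8) was then below only TMEM14C (28.4), FECH (11.1) and SLC25A38 (11). Per kb of the longest transcript, FECH moved from rank 5 in the control to rank 3 with HPPE (16.8 ± 1.31 CPM per kb). Per kb of all exons its rank did not move. It came next after TMEM14C in the control (11.1 against 28.4) and with HPPE (14.5 against 34.1).

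Other genes of the pathway came from a list of 34 that supply its substrates, move iron and porphyrins, control ALAS1, or use, export and degrade heme; 31 of them were tested. ALAS2 (at most 2 counts in any library), PPARGC1A and FLVCR2 were too low. With HPPE, 3 of 31 were called higher and 0 lower, beside 2.57% and 1.47% of all genes. HMOX1 averaged 5.9 CPM in the control, 351 with HPPE, 47 with zinc protoporphyrin and 7.38 with tin protoporphyrin. ABCB6, a transporter linked to porphyrin traffic, was at 4.23, 7.39 and 4.47 CPM in the control and 9.75, 11.9 and 12.3 CPM with HPPE. Its groups did not overlap (log2 0.98 ± 0.22, edgeR adjusted p = 0.0151), but the call was lost without DMSO control 1 (0.178), HPPE 2 (0.0968) or HPPE 3 (0.0545). SLC48A1, a heme transporter, was at 21.7, 19.4 and 21.1 CPM in the control and 29.3, 28.5 and 29.8 CPM with HPPE (log2 0.50 ± 0.13, edgeR adjusted p = 0.032). Its call was lost in 8 alternatives, which included the removal of each library of these groups except DMSO control 3 (adjusted p from 0.0899 to 0.209) and DESeq2 (0.0732). Another of the 8 was the fit with HPPE 2 and HPPE 3 summed (adjusted p = 0.0821).

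With zinc protoporphyrin 1 of 31 was called, HMOX1 (log2 2.97 ± 0.24, edgeR adjusted p = 4.05e-06), where 1.84% of all genes were called higher. Of the 31 values 25 were below 0, as were 8273 of all 16366, and their median was -0.09. ABCB6 was at 6.78, 4.19 and 5.89 CPM and SLC48A1 at 21.8, 15.7 and 15.6 CPM there. With tin protoporphyrin edgeR and DESeq2 called 0 of 31. An unadjusted edgeR p under 0.05 was found for 3 of the 31, where 14.7% of all genes had one, and the median was 0.02 beside 0.01. Between HPPE and zinc protoporphyrin, 6 of 31 were higher with HPPE, where 6.44% of all genes were: HMOX1, ABCB6, SLC48A1, and PGRMC1, TSPO and SUCLG2, the last 3 named after their values were seen. Between HPPE and tin protoporphyrin, HMOX1 and ABCB6 (log2 1.18 ± 0.21, edgeR adjusted p = 0.00485) were higher with HPPE, and between the protoporphyrins HMOX1 was the only one called. Without HPPE 2 the ABCB6 calls were lost against zinc protoporphyrin (adjusted p = 0.0634) and against tin protoporphyrin (0.0578). Without tin protoporphyrin 2, 6 of 31 were called between the protoporphyrins, SLC48A1 among them (log2 -0.45, adjusted p = 0.0449), in the same fit that called 1453 genes in all.

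The genes whose pattern was most like that of ALAS1 were found by the root mean square difference of centred log2 CPM over the 12 libraries, among 11940 genes with a mean of at least 5 CPM. They were HDHD3 (0.229), RGS2 (0.239), GINS3 (0.25), COMMD3 (0.259) and BEX4 (0.26). Since these genes were chosen for this pattern in the same libraries, their levels are a description without a test. HDHD3 averaged 8.19 CPM in the control, 8.32 with HPPE, 3.78 with zinc protoporphyrin and 6.5 with tin protoporphyrin. In the same order RGS2, a regulator of G protein signalling, averaged 8.74, 8.37, 4.24 and 7.8 CPM, and COMMD3 8.08, 8.2, 3.85 and 7.35 CPM. GINS3 averaged 14.9, 19.7, 10.4 and 14.1 CPM, and BEX4 43.9, 63.8, 31.8 and 46.3 CPM. All 5 had their lowest group mean with zinc protoporphyrin, and all but RGS2 had their highest with HPPE, by little for HDHD3 and COMMD3. HDHD3 lies at chr9:113373419-113376999 on the minus strand, 9.3 kb from ALAD on the same strand. Among the other members, ALAD was the nearest to ALAS1 by this measure (0.344, rank 153), followed by FECH (rank 231), and UROS was the farthest (rank 6258).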

How the data were processed

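mRNA was sequenced from 12 SH-SY5Y libraries, prepared with the MGIEasy kit per the labels' protocols. The authors deposited raw counts of reads for each gene, as whole numbers without normalization. The submitters' processing notes name fastp 0.21.1, STAR 2.7.7a, featureCounts and GRCh38; the annotation and the use of strand in counting are not given in the sources used here. Genes were matched by Ensembl identifier, and 60437 of 60710 rows had a symbol. After edgeR's filterByExpr on the groups, 16366 genes with 99.6% of counts remained. One edgeR 4.0.16 quasi-likelihood model (R 4.3.3, TMM scaling, robust, 1 mean per group, 8 residual degrees of freedom) was fitted to all 12 libraries. The 6 comparisons were tested two-sided with Benjamini-Hochberg adjustment over these genes; calls needed an adjusted p under 0.05. Positions, transcript lengths and GC content came from GENCODE 29. Intervals are 95%, and CPM errors are SD over 3 libraries. PCR reads carry no molecular identifiers, so counting error is a lower limit.

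All members are named, with the pathway genes called against the control and HMOX1, and the 5 genes most like ALAS1. The members and lists were chosen with earlier results of these data known. The alternatives were other filters and size factors, unscaled libraries, DESeq2 1.42.0, the replicate number as a block, a fit of only the groups compared, non-robust estimation, the main axis of variation within groups as a covariate, HPPE 2 and 3 summed, each library left out and, chosen after seeing the data, the removal of length and GC trends. The procedure was tested on simulated counts for zinc protoporphyrin against DMSO. It recovered 74.7% of 2-fold and 46.1% of 1.5-fold changes, with 4.77% of calls false. The simulated counts held neither the length trend nor the within-group axis of these libraries. Some genes are not reported here.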

Additional observations from a re-analysis of the deposited data

How the results depend on the processing

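Of 1771 log2 values recomputed under 23 alternatives, 1622 kept their direction and their side of the threshold, 63 lost a call, 55 gained one and 31 changed sign, none of the last with a call. The cause of the changes was not tested. Members called with HPPE against DMSO (1) numbered 0 with the replicate block, 2 with the within-group axis as a covariate and 0 to 2 with a library left out. With zinc protoporphyrin against DMSO (2) they numbered 1 with the compared groups only, the block or DESeq2, 7 with the axis and 1 to 2 with a library left out, and with tin protoporphyrin (0) they numbered 2 with the axis. For HPPE against zinc protoporphyrin (4) they were 8 without a filter, with the compared groups only and with the axis. These fits called 3186, 4267 and 5698 genes in all. With a library left out the members called were 2 to 8. For HPPE against tin protoporphyrin (2) they were 4 with the axis and 1 to 2, and for zinc against tin protoporphyrin (0) they were 2 without a filter, 1 with a 1 CPM filter, length and GC trends removed or DESeq2, 3 with the axis and 0 to 3. Pathway neighbours called, in the same order, were 3, 1, 0, 6, 2 and 1, and with the axis 7, 8, 3, 15, 8 and 7. They were 10 for HPPE against zinc protoporphyrin with the compared groups only, and with a library left out 1 to 3 for HPPE against DMSO, 2 to 9 against zinc protoporphyrin, 1 to 2 against tin protoporphyrin and 1 to 6 between the protoporphyrins. The axis was taken from the deviations of these same counts within groups, so fitting it narrows the residual spread by construction. Its calls are therefore no separate support. Nor are those of the fit with length and GC trends removed, since the trends were also estimated from these counts. The axis, whose scores sum to 0 within each group, also moved log2 values slightly, as for UROD with zinc protoporphyrin against DMSO (-0.24 to -0.30). Over all genes, calls in the same order were 662, 369, 373, 2078, 238 and 1. The block gave 412, 133, 209, 758, 139 and 1, the axis 2672, 4158, 2207, 5698, 2594 and 2350, and the other alternatives 284 to 1239, 72 to 904, 131 to 829, 173 to 4267, 91 to 498 and 1 to 1453, the last without tin protoporphyrin 2. Replicate numbers did not pair the libraries: same-number deviations correlated at -0.68 to 0.52, and 3 of 12 libraries were most alike to their own number. Signs changed for values near 0. With unscaled libraries ALAD was 0.01 with HPPE and TMEM14C 0.01 with tin protoporphyrin. SLC25A38 with HPPE was -0.03 with the axis and -0.07 with trends removed, which also gave TMEM14C 0.01 with zinc protoporphyrin and 0.11 for zinc against tin protoporphyrin, and UROD -0.02 for HPPE against tin protoporphyrin. With a library left out, values with HPPE against DMSO ran from -0.05 to 0.03 for ALAD, -0.02 to 0.18 for CPOX, -0.27 to 0.02 for PPOX and -0.06 to 0.10 for SLC25A38. ABCB6 with zinc protoporphyrin ran from -0.36 to 0.29. With tin protoporphyrin they were -0.15 to 0.03 for SLC25A38, -0.16 to 0.07 for TMEM14C, -0.44 to 0.20 for ABCB6 and -0.03 to 0.11 for SLC48A1. HPPE against tin protoporphyrin gave -0.05 to 0.02 for UROS, -0.12 to 0.22 for UROD, -0.04 to 0.14 for PPOX and 0.00 to 0.18 for SLC25A38, and zinc against tin protoporphyrin -0.10 to 0.01 for FECH, -0.19 to 0.03 for TMEM14C and -0.08 to 0.30 for ABCB6. Depth limits the values of zinc protoporphyrin 1 and DMSO control 3 most, where a count of 3 is over 1 CPM.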
